A study of Mus musculus with 30 samples.

Results

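The 7 genes described here encode the machinery by which a cell shows peptides on MHC class II molecules, and they were chosen by name: H2-Aa, H2-Ab1, H2-Eb1, H2-DMa, H2-DMb1, Cd74 and Ciita, 7 of the 17420 genes in the deposited table. No threshold on their levels was part of the choice, but it was made with earlier results of these data known. They were read in 30 libraries, quadriceps muscle and whole spinal cord from each of 15 male mice aged 4 months, in 5 groups of 3 animals. The mice carry or lack Gaa, the gene for acid alpha-glucosidase, whose loss is the cause of Pompe disease, a lysosomal glycogen storage disorder.

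The groups were Gaa KO B6;129 mice, Gaa WT B6;129 mice, treated Gaa KO mice on the background that the labels call B6;129;DBA2/J (Ltbp4D36/D36), untreated Gaa KO mice on that background, and Gaa WT mice on it. That second background is called mixed below, and its WT, KO and treated animals all carry the Ltbp4 D36 allele on both chromosomes. Treated mice received AAV9-sp7-8-hGAAco, an adeno-associated virus vector for secreted human GAA, through the temporal vein as neonates on postnatal day 1 to 2. A liver-muscle promoter (LiMP) drives its transgene. The column names carry the letter A for all B6;129 libraries and B for all mixed-background libraries, called series A and B below, which means that effects of background and of series cannot be told apart. Values are in the deposited signal, a normalised read count, in which a single read counts for 0.0329 to 0.072 in quadriceps libraries and for 0.0179 to 0.0369 in cord libraries.

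MHC class II molecules are pairs of an alpha and a beta chain on macrophages, dendritic cells and B cells, and they present peptides cut in endosomes and lysosomes to CD4+ T cells. Cd74, the invariant chain, blocks the peptide groove until lysosomal proteases such as cathepsin S degrade it, and the H2-DM pair then exchanges the remaining fragment for antigen. Ciita is the master coactivator of these genes, and it acts through factors (the RFX complex, CREB and NF-Y) bound to the X and Y boxes of their promoters. In healthy skeletal muscle class II is carried by resident macrophages and other interstitial cells, and in the central nervous system it is largely borne by macrophages of the borders and little by resting microglia. In whole-tissue RNA, fewer cells of a type and less RNA per cell cannot be told apart.

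A haplotype difference bears on these genes. C57BL/6 mice carry the b haplotype of the H2 region, in which the class II E alpha gene is not expressed, and DBA/2J mice carry the d haplotype, in which it is. Reads were counted on GRCm38, a C57BL/6 genome, where that gene is listed as H2-Ea-ps.

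Of the members, 5 lie in the H2 class II region of chromosome 17 in the GRCm38 annotation (GENCODE vM21): H2-DMa at chr17:34119541-34139101, H2-DMb1 at chr17:34153072-34160230, H2-Ab1 at chr17:34257689-34269419, H2-Aa at chr17:34282744-34287823 on the minus strand and H2-Eb1 at chr17:34305867-34316674. H2-Ea-ps follows at chr17:34341959-34344645, annotated as a polymorphic pseudogene. Ciita lies outside it, at chr16:10480059-10528418, and so does Cd74. H2-DMb1 has a near-identical neighbour, H2-DMb2, so the split of reads between those 2 genes is uncertain.

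The promoter windows of 3 members are shown because they hold letters that match cores of the X and Y boxes in the search described here. RefSeq windows on GRCm38.p6 (250 bases before to 50 after the start) were read for 4 of the 7 members. The other members were left out of this reading, so it does not say whether their windows hold such matches. The letters GNAAC, a core of the X box, were searched with ATTGG, the Y box, 15 to 35 bases downstream on the same strand. Capitals mark both matches, and each line reads 5′ to 3′ on the gene's strand: H2-Aa at chr17:34287774-34288073 (minus), H2-Eb1 at chr17:34305617-34305916 (plus) and H2-DMb1 at chr17:34152941-34153240 (plus).
H2-Aa: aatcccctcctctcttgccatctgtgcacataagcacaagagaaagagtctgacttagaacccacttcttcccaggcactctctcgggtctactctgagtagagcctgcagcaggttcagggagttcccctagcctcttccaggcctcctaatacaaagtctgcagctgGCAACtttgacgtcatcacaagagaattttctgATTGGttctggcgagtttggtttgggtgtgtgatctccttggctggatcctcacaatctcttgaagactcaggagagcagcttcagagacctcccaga
H2-Eb1: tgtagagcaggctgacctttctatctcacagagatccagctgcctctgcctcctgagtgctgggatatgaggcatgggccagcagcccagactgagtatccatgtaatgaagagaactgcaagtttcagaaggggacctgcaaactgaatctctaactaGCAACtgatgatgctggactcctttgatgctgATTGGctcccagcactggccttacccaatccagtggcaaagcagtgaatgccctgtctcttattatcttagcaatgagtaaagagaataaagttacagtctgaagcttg
H2-DMb1: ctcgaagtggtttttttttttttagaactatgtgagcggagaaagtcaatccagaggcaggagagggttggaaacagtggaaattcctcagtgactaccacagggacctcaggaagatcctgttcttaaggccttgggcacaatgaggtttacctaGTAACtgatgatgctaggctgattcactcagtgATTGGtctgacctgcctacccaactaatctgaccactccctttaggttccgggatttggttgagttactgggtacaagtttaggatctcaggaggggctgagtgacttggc
The 2 matches are 28, 27 and 28 bases apart in H2-Aa, H2-Eb1 and H2-DMb1. The pair of matches on the gene's strand was found in 1.74% of all 32851 windows of this length, and on either strand in 3.51%. ATTGG alone, read on either strand as CCAAT, was in 37.4% of windows. Neither of the 2 windows of H2-DMa holds the pair. A match is a run of letters and not a measured binding site.

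Gaa transcript followed the genotype labels in each library, with 11.6 to 18.9 in KO and treated KO quadriceps against 169 to 308 in WT quadriceps, and 8.09 to 17.7 in KO and treated KO cord against 131 to 236 in WT cord. Libraries held 1.69e+07 to 3.71e+07 reads. The tissue labels fitted their markers, with 6 skeletal muscle markers summing to at least 1.17e+05 in each quadriceps library and at most 1.38e+03 in any cord library. The 2 cord libraries with the most of these muscle markers, treated KO replicate 24 (1.12e+03) and mixed-background WT replicate 3 (1.38e+03), also had the highest class II sums of all cord libraries, and the mixed-background cord differences of the members are also given without them. No label says whether the 3 animals of a group were littermates, and the p-values below measure the spread between these animals.

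In quadriceps, all 7 class II genes were higher in KO than in WT mice on both backgrounds, and all 7 were lower in treated than in untreated KO mice. In spinal cord of the same animals the class II chains, H2-DMb1 and Cd74 did not pass the test between KO and WT on either background. Levels of each gene in all 30 libraries are shown in the plot of class II levels by library.

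**Figure D1:**
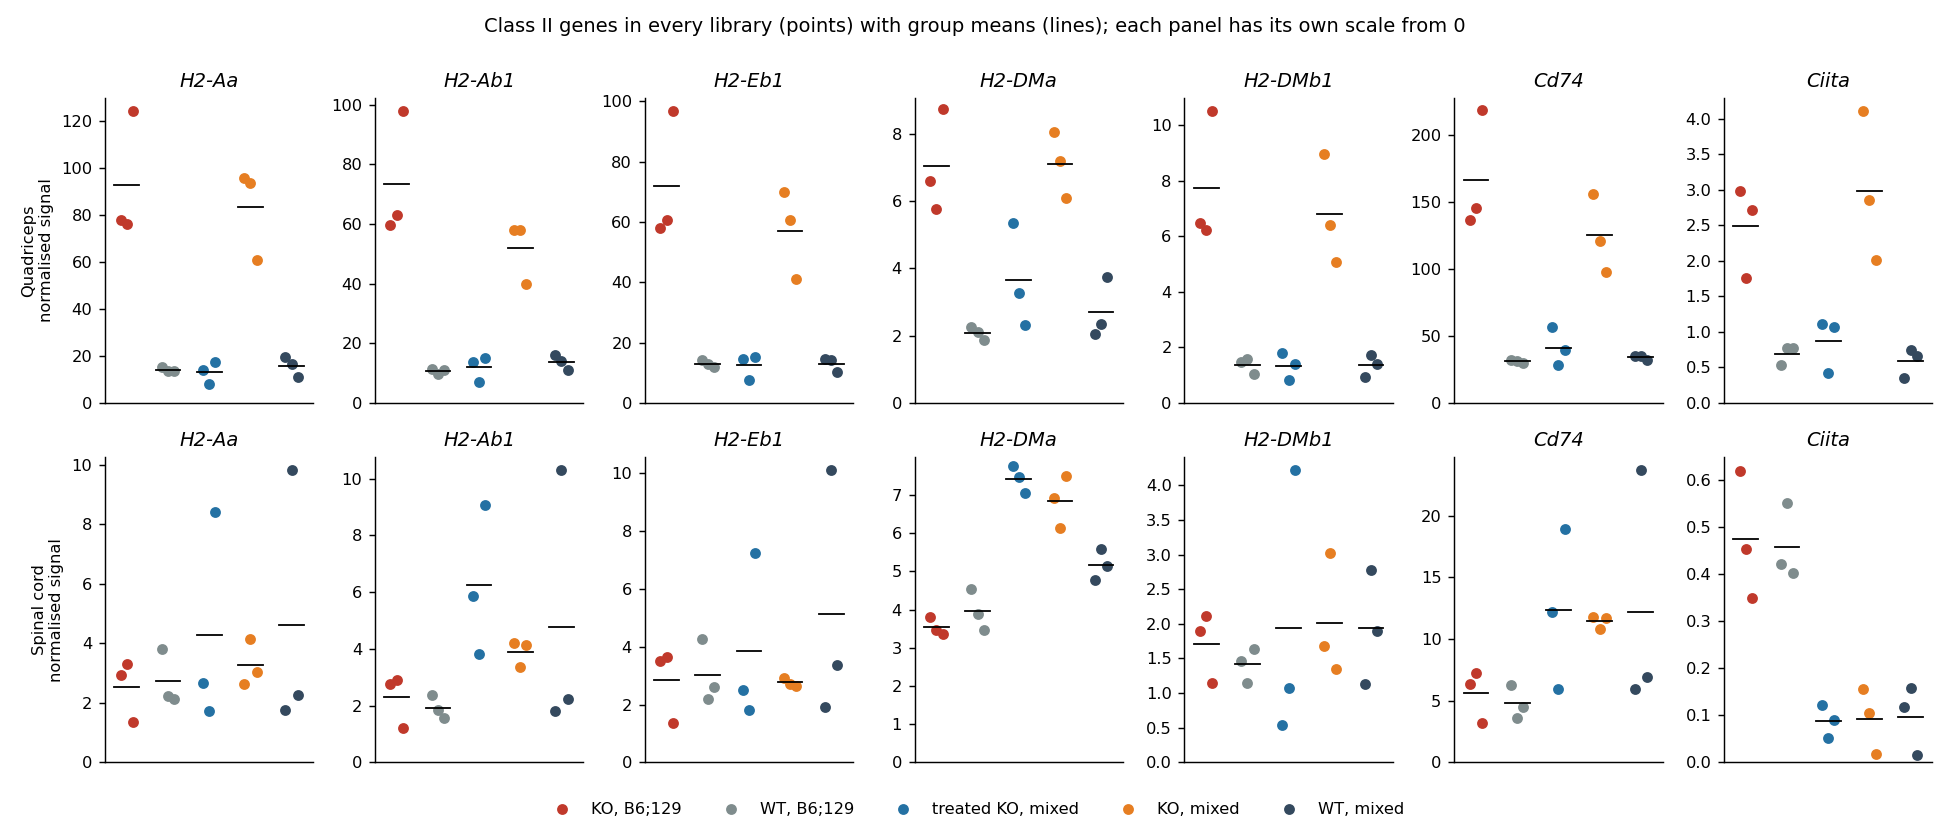
Signal of the 7 class II genes (linear axes from 0) in quadriceps (top row) and spinal cord (bottom row), 1 point per library and a line at each group mean of 3 libraries. In quadriceps the KO and untreated KO points lie above all WT and treated points of their background for each gene, and in cord 2 libraries, treated KO replicate 24 and mixed-background WT replicate 3, stand above the rest for the class II chains.

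The classical chains come first. H2-Aa, the alpha chain of the A molecule, had 77.9, 76.1 and 124 in KO B6;129 quadriceps against 15.3, 13.6 and 13.4 in WT B6;129 quadriceps. All 3 KO libraries were above all WT libraries, with KO replicate 3 the highest. The difference was 2.64 ± 0.28 on the log2(signal + 0.5) scale (estimate ± SE, n = 3 each, limma adjusted p = 1.23e-05), a 6.22-fold difference on that scale. H2-Aa had on the mixed background 95.7, 93.5 and 60.9 in KO quadriceps against 19.3, 16.5 and 10.8 in WT quadriceps, again without overlap (2.39 ± 0.28, limma adjusted p = 2.43e-05). Its treated libraries had 14.1, 8.21 and 17.2, all within or below the range of those WT libraries, and the difference from untreated KO was -2.65 ± 0.28 (limma, adjusted p = 7.49e-06).

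H2-Ab1, the beta chain that pairs with H2-Aa, had 59.6, 63.0 and 97.8 in KO B6;129 quadriceps against 11.4, 9.65 and 10.9 in WT B6;129 quadriceps (2.70 ± 0.27, limma adjusted p = 7.29e-06). In mixed-background quadriceps it had 13.8, 6.85 and 15.2 in treated KO, 58.0, 58.1 and 40.0 in KO and 16.0, 13.9 and 10.9 in WT mice. The untreated KO libraries stood apart from both other groups, and treated and WT libraries overlapped. H2-Ab1 was 1.89 ± 0.27 higher in KO than in WT (limma, adjusted p = 0.000113) and lower in treated than in untreated KO (-2.13 ± 0.27, limma adjusted p = 3.37e-05).

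H2-Eb1, the beta chain of the E molecule, is made in b-haplotype mice although its alpha partner is not. It had 58.1, 60.7 and 96.8 in KO B6;129 quadriceps against 14.1, 12.8 and 11.8 in WT B6;129 quadriceps (2.40 ± 0.27, limma adjusted p = 2.02e-05). Mixed-background values were 14.5, 7.56 and 15.2 in treated KO, 69.9, 60.6 and 41.0 in KO and 14.4, 14.3 and 10.2 in WT quadriceps. The KO libraries again stood clear of the others, by 2.08 ± 0.27 over WT (limma, adjusted p = 5.49e-05), and treated mice differed from untreated KO by -2.19 ± 0.27 (limma, adjusted p = 2.87e-05).

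The peptide-editing pair followed the same direction. H2-DMa, the alpha subunit of the exchange factor, had 6.61, 5.77 and 8.73 in KO B6;129 quadriceps against 2.27, 2.10 and 1.88 in WT B6;129 quadriceps (1.53 ± 0.26, limma adjusted p = 0.000481). The mixed-background values were 5.36, 3.28 and 2.30 in treated KO, 8.05, 7.18 and 6.08 in KO and 2.05, 2.33 and 3.73 in WT quadriceps. The KO libraries were the highest 3, and treated replicate 21 came closest to them. H2-DMa was 1.27 ± 0.26 higher in KO than in WT (limma, adjusted p = 0.00159) and differed by -0.93 ± 0.26 between treated and untreated KO (limma, adjusted p = 0.0103), the smallest treatment difference of the 7. Without treated replicate 24 that difference was -0.68 and was not called (limma, adjusted p = 0.0524).

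H2-DMb1, the beta subunit, had 6.48, 6.21 and 10.5 in KO B6;129 quadriceps against 1.48, 1.58 and 1.05 in WT B6;129 quadriceps (2.11 ± 0.27, limma adjusted p = 6.06e-05). In mixed-background quadriceps it averaged 1.33 ± 0.49 in treated KO, 6.80 ± 1.97 in KO and 1.35 ± 0.389 in WT mice (SD, n = 3 each). The KO libraries did not overlap either other group (1.97 ± 0.27 over WT, adjusted p = 9.64e-05; -2.0 ± 0.27 for treated over untreated KO, adjusted p = 6.49e-05; limma). Its neighbour H2-DMb2 had 1.12 ± 0.0798 in KO against 0.478 ± 0.18 in WT on B6;129, and 0.712 ± 0.619 in treated KO, 2.30 ± 0.764 in KO and 0.429 ± 0.173 in WT mice on the mixed background.

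Cd74, the invariant chain, whose gene lies at chr18:60803848-60812652, had the highest signal of the 7. It had 136, 145 and 218 in KO B6;129 quadriceps against 32.2, 31.1 and 29.8 in WT B6;129 quadriceps (2.37 ± 0.23, limma adjusted p = 5.27e-06). Among mixed-background mice Cd74 had 56.3, 28.3 and 39.1 in treated KO, 156, 121 and 97.7 in KO and 35, 34.8 and 32.2 in WT quadriceps. The KO libraries stood above both other groups (1.83 ± 0.23 over WT, adjusted p = 3.89e-05; -1.61 ± 0.23 for treated over untreated KO, adjusted p = 8.27e-05; limma), and 2 of 3 treated libraries, replicates 21 and 24, were above the highest WT library. Per kilobase of annotated exons, Cd74 also led in KO B6;129 quadriceps, with a mean signal of 99.1 ± 27, against 37 ± 11.1 for H2-Eb1, 28.6 ± 8.25 for H2-Ab1, 24.4 ± 7.18 for H2-Aa, 4.6 ± 1.43 for H2-DMb1 and 2.04 ± 0.442 for H2-DMa (SD, n = 3).

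Ciita, the coactivator, was the lowest of the 7 at 0.261 ± 0.0673 per kilobase in KO B6;129 quadriceps, and rests on few reads. It had 2.99, 1.76 and 2.71 (40 to 82 reads) in KO B6;129 quadriceps against 0.54, 0.778 and 0.767 (7 to 16 reads) in WT B6;129 quadriceps (1.30 ± 0.28, limma adjusted p = 0.00269). In mixed-background mice it had 1.11, 0.422 and 1.07 in treated KO, 4.11, 2.85 and 2.01 in KO and 0.357, 0.743 and 0.662 in WT quadriceps. The KO groups did not overlap WT or treated libraries, and KO replicate 6 was the highest. Ciita was 1.66 ± 0.28 higher in KO than in WT (limma, adjusted p = 0.000458) and differed by -1.35 ± 0.28 between treated and untreated KO (limma, adjusted p = 0.0017). At this low level the pseudocount sets the size, and with 2 in place of 0.5 the 3 differences were 0.73, 0.93 and -0.79 and were still called.

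As counts, 7 of 7 members were called higher in KO than in WT on B6;129, where 35.8% of all 14113 genes tested in quadriceps were called and 16.7% were called higher. Again 7 of 7 were called higher on the mixed background, beside 39.4% of genes called and 17.1% called higher. In treated over untreated KO 7 of 7 were called lower, beside 40.6% called and 17.1% called lower. The libraries of the 2 groups did not overlap for 7 of 7 members in each of these comparisons, which held for 53.9%, 46.4% and 49.4% of all genes. The median member difference was 2.37, 1.89 and -2.0, against -0.02, -0.04 and 0.05 over all genes. The comparisons on the mixed background share the untreated KO libraries.

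Treated KO and WT quadriceps on the mixed background did not differ beyond their spread in any member. Of the 7, 0 were called, beside 2.98% of all genes. The groups overlapped for 7 of 7 members, where 23.9% of all genes did not overlap. The 95% intervals of the 7 log2 differences together reached from -0.85 (H2-Aa) to 0.91 (Ciita), so differences within those bounds would have been missed. By the unadjusted limma p, 0 of 7 were under 0.05, and edgeR and DESeq2 on the recovered reads also called 0.

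WT mice of the mixed background and of B6;129 had overlapping quadriceps levels for all 7 genes, with 0 called beside 2.57% of all genes. Between these WT groups 21.9% of all genes did not overlap. The size of the KO difference was likewise not called different between backgrounds for any of the 7, beside 0.283% of all genes. The largest gap was in H2-Ab1, whose KO difference was 0.81 smaller on the mixed background (-0.81 ± 0.38, 95% interval -1.62 to 0.01, unadjusted p = 0.0517, limma adjusted p = 0.462). Its untreated KO libraries on the mixed background (58.0, 58.1 and 40.0) were all below those on B6;129 (59.6, 63.0 and 97.8), and backgrounds were read in different series.

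Order of levels: H2-Aa, H2-Eb1, H2-DMb1 and Cd74 were highest in KO B6;129 quadriceps, followed by untreated KO quadriceps on the mixed background, and these neighbours in the order overlapped. H2-Ab1 had the same order without overlap. Ciita was highest in untreated KO quadriceps on the mixed background (2.99 ± 1.06) and next in KO B6;129 quadriceps (2.49 ± 0.642), which overlapped. For these 6 genes the step down to the next group was free of overlap. The 3 quadriceps groups without raised levels (treated KO and both WT groups) overlapped one another for H2-Aa, H2-Ab1 and H2-Eb1, and the cord groups came last. In H2-DMb1 the cord groups (means of 1.42 to 2.02) ranked above those 3 quadriceps groups (1.33 to 1.37), each overlapping the next. H2-DMa also had another order, with treated KO cord at the top (7.43 ± 0.363). Untreated KO quadriceps on the mixed background (7.10 ± 0.985) and KO B6;129 quadriceps (7.04 ± 1.53) followed, all overlapping.

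In spinal cord the class II chains were far lower and were not called between KO and WT. H2-Aa had 2.95, 3.29 and 1.35 in KO B6;129 cord against 3.82, 2.22 and 2.14 in WT B6;129 cord, which overlap. It had on the mixed background 2.67, 1.74 and 8.41 in treated KO, 2.62, 4.16 and 3.04 in KO and 1.77, 9.82 and 2.25 in WT cord. A single library led in the treated and the WT group, treated replicate 24 and WT replicate 3, the pair named above.

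Cd74 had 6.39, 7.26 and 3.18 in KO B6;129 cord against 6.26, 3.6 and 4.5 in WT B6;129 cord. Its mixed-background values were 12.2, 5.99 and 18.9 in treated KO, 11.8, 10.8 and 11.7 in KO and 5.99, 23.7 and 6.91 in WT cord. The 3 untreated KO libraries lie close together between the low and the high WT libraries. H2-Ab1 had 5.85, 3.81 and 9.06 in treated KO, 4.22, 3.35 and 4.15 in KO and 1.81, 10.3 and 2.25 in WT cord on that background. Without WT replicate 3 and treated replicate 24, an alternative chosen after the values were seen, H2-Ab1 was 1.05 higher in treated KO than in WT cord (limma, adjusted p = 0.0428), and without WT replicate 3 alone 1.34 higher (limma, adjusted p = 0.0148).

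The other cord differences on the mixed background also depended on these 2 libraries. Without both, KO over WT was 0.57 in H2-Aa, 0.80 in H2-Ab1, 0.10 in H2-Eb1, 0.29 in H2-DMb1 and 0.78 in Cd74, none of them called (limma, adjusted p of 0.0738 in H2-Ab1 to 0.885 in H2-Eb1), against -0.11, 0.10, -0.50, 0.05 and 0.18 with all libraries. All 3 KO libraries were then above both remaining WT libraries in H2-Aa, H2-Ab1 and Cd74, and not in H2-Eb1 or H2-DMb1. The share of all genes that separate in this way was not computed. With all libraries of these groups, 29.2% of all genes did not overlap. Treated over untreated KO, where treated replicate 24 alone bears on the difference, was -0.48 in H2-Aa, 0.26 in H2-Ab1, -0.31 in H2-Eb1, 0.15 in H2-DMa, -0.92 in H2-DMb1 and -0.39 in Cd74 without that library, with 0 of 6 called by limma. Treated KO over WT without both libraries was 0.09 in H2-Aa, -0.21 in H2-Eb1, -0.63 in H2-DMb1 and 0.39 in Cd74, none called by limma.

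H2-DMa was the exception in cord. On the mixed background it had 7.77, 7.47 and 7.05 in treated KO, 6.92, 6.14 and 7.50 in KO and 4.78, 5.58 and 5.15 in WT cord, and both KO groups lay above WT. The difference was 0.49 ± 0.11 for treated KO over WT (limma, adjusted p = 0.00917) and 0.37 ± 0.11 for KO over WT (limma, adjusted p = 0.0372). Without treated replicate 24 and WT replicate 3 both were still called, at 0.57 and 0.43 (limma, adjusted p = 0.02 and 0.0391). The call for KO over WT was lost without any 1 of WT replicate 1 (0.32, adjusted p = 0.104), WT replicate 4 (0.37, adjusted p = 0.1), KO replicate 6 (0.37, adjusted p = 0.094) or KO replicate 8 (0.31, adjusted p = 0.12), by limma. On B6;129 H2-DMa had 3.80, 3.48 and 3.36 in KO cord against 4.55, 3.88 and 3.46 in WT cord, which overlap. The KO difference was 0.51 ± 0.15 larger on the mixed background (unadjusted p = 0.00513), which was not called (limma, adjusted p = 0.194), and 0 of 6 members were called for a difference between backgrounds, beside 0.524% of all genes.

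By count, cord KO over WT on B6;129 had 0 of 6 members called, beside 1.16% of 15838 genes, and 0 of 6 with an unadjusted p under 0.05. KO over WT on the mixed background had 1 of 6 called, H2-DMa, beside 13% of genes, and treated KO over WT had 1 of 6, the same gene, beside 16.8%. Treated over untreated KO had 0 of 6 called, beside 0% of genes by limma, where 1697 genes had an unadjusted p under 0.05, edgeR called 2 genes and DESeq2 155, none of them a member. Non-overlap of the 2 groups held for H2-DMa alone in both comparisons with WT on the mixed background (29.2% and 30.2% of all genes) and for 0 of 6 members in KO over WT on B6;129 (23.9%) and treated over untreated KO (12.3%). The 95% intervals of the KO differences in the chains, H2-DMb1 and Cd74 are wide, from -1.28 to 1.15 on B6;129 and from -1.58 to 1.16 on the mixed background.

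Ciita stayed under the level needed for testing in cord (a signal of 1 in 3 libraries), so 6 of the 7 were tested there. It had 0.618, 0.453 and 0.35 in KO and 0.421, 0.55 and 0.402 in WT B6;129 cord (11 to 30 reads), and 0 to 5 reads in each of the 9 mixed-background cord libraries. In a fit without the filter, mixed-background WT cord was 0.69 lower than B6;129 WT cord (-0.69 ± 0.14, limma adjusted p = 0.000763). Between those WT groups 66.8% of tested genes were called and 71.6% did not overlap, and mitochondrial genes took 13.2% to 17.1% of reads in series B cord against 6.99% to 7.7% in series A cord, so that this difference and the series cannot be told apart. H2-DMa, the member called there in the filtered fit (1 of 6), was 0.35 ± 0.11 higher in mixed-background than in B6;129 WT cord (limma, adjusted p = 0.011). That call was lost without B6;129 WT replicate 6 (0.27; adjusted p = 0.0613, limma).

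**Figure D2:**
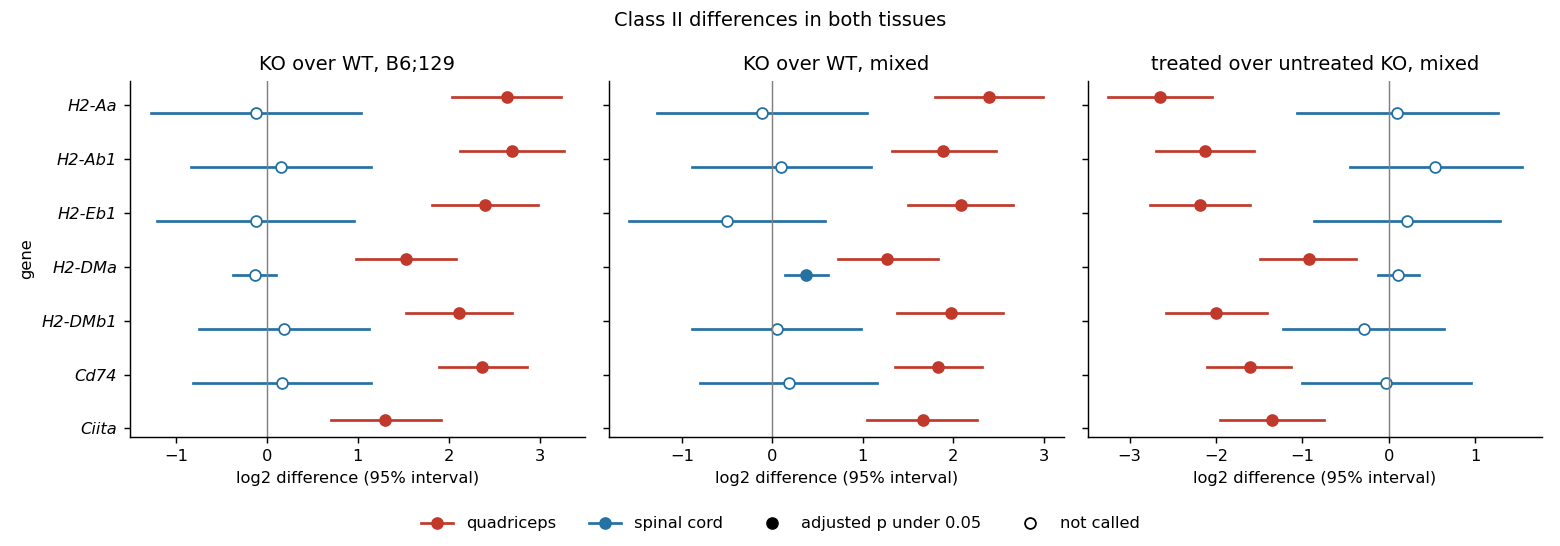
Log2 differences with 95% intervals for each class II gene, quadriceps above spinal cord within a gene; filled points have an adjusted p under 0.05 (limma). The quadriceps intervals lie to the right of 0 in both KO comparisons and to the left of 0 for treatment, and among cord points H2-DMa on the mixed background is the one filled.

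The tissues were compared directly in a fit of all 30 libraries. The KO difference was larger in quadriceps than in cord for 6 of 6 testable members on B6;129, beside 25.4% of 13187 genes called and 12.2% called in that direction. It was larger for 6 of 6 on the mixed background, beside 32.3% called and 13.6% in that direction. The treatment difference was more negative in quadriceps for 6 of 6, beside 33.6% called and 14% in that direction. H2-Aa had a KO difference 2.75 ± 0.66 larger in quadriceps on B6;129 (limma, adjusted p = 0.00327), and the values for all members are in the closing section.

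Genes around the class II pathway moved with it in quadriceps. Of 8 measured genes for lysosomal proteolysis and class II turnover, 6 rose in KO B6;129 quadriceps and 7 in KO mixed-background quadriceps, and 6 fell with treatment. Over all genes, 16.7% and 17.1% were called higher in KO, and 17.1% were called lower with treatment. Ctss, cathepsin S, had 36.6 ± 12 in KO against 3.52 ± 0.668 in WT on B6;129 (3.17 ± 0.28, limma adjusted p = 3.07e-06). Lgmn, the asparagine endopeptidase legumain, had 124 ± 24.3 in KO against 32.4 ± 0.63 in WT (1.90 ± 0.13, limma adjusted p = 4.53e-07). Lgmn was on the mixed background 32.6 ± 4.66 in treated KO, 146 ± 14.7 in KO and 36.0 ± 1.99 in WT quadriceps.

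In KO cord the same proteolysis list also held called genes, 4 of 8 higher on B6;129 and 5 of 8 on the mixed background. These counts stand beside 1.16% and 13% of all genes called. Ctss rose to 104 ± 9.42 in KO against 49.1 ± 1.59 in WT B6;129 cord (1.07 ± 0.13, limma adjusted p = 0.000566), and to 134 ± 4.96 in KO against 52.5 ± 1.14 in WT cord on the mixed background (1.34 ± 0.13, limma adjusted p = 4.16e-05). Ctsd, cathepsin D, rose by 1.02 ± 0.08 in KO B6;129 cord (limma, adjusted p = 6.58e-06). The costimulatory gene Cd86 rose in KO cord on both backgrounds (0.76 ± 0.15 and 1.06 ± 0.15, limma adjusted p = 0.0247 and 0.000961), beside class II chains that were not called.

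MHC class I genes, which load peptides from the cytosol, rose in quadriceps as well, 5 of 10 in KO B6;129 and 8 of 10 in KO mixed-background mice, and 6 of 10 fell with treatment. The shares over all genes were 16.7% and 17.1% called higher and 17.1% called lower. Tapbp, the loading factor tapasin, was 0.75 ± 0.09 higher in KO on each background (limma, adjusted p = 4.88e-05 and 4.3e-05). In cord 0 of 10 class I genes were called on B6;129 (by limma), beside 1.16% of all genes. On the mixed background 7 of 10 rose in KO cord, beside 13% of all genes called. B2m, the class I light chain, had 137 ± 43.2 in treated KO, 179 ± 18.1 in KO and 80.0 ± 11.8 in WT cord there (1.16 ± 0.17 for KO over WT, limma adjusted p = 0.00116). The difference between backgrounds was not called by limma for any of the 10 in cord, beside 0.524% of all genes.

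The factors that sit on class II promoters did not rise as a list. Of 7 measured, 0 rose and 2 fell in KO B6;129 quadriceps (Nfyb -0.56 ± 0.13 and Creb1 -0.37 ± 0.11, limma adjusted p = 0.00362 and 0.0191). The mixed background had 1 that rose, Rfx5, a DNA-binding subunit of the RFX complex (0.86 ± 0.15, limma adjusted p = 0.000685), and Nfyb and Rfxap fell. Rfx5 fell again with treatment (-0.60 ± 0.15, limma adjusted p = 0.00727). The median over the 7 was -0.15, -0.11 and 0.06 in these comparisons, and 2 of 7 and 3 of 7 called in KO mice stand beside 35.8% and 39.4% of all genes.

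Interferon gamma is the classical inducer of Ciita, and its signalling genes were split in direction. Of 10 measured in quadriceps, 3 rose and 2 fell in KO B6;129 mice, and 4 rose and 2 fell in KO mixed-background mice. These are 5 of 10 and 6 of 10 called, beside 35.8% and 39.4% of all genes called in the same comparisons. Ifngr2, a receptor subunit, rose by 0.71 ± 0.09 and 0.89 ± 0.09 (limma, adjusted p = 4.51e-05 and 5.91e-06). Jak2, the receptor's kinase, had 39.4 ± 6.55 in KO against 91.9 ± 2.22 in WT on B6;129 (-1.22 ± 0.11, limma adjusted p = 3.61e-06), and fell also on the mixed background (-1.17 ± 0.11, limma adjusted p = 5.13e-06). Socs1, an inhibitor of this pathway, rose on B6;129, with 4.65 ± 2.48 in KO against 0.354 ± 0.248 in WT quadriceps (2.53 ± 0.37, limma adjusted p = 0.000151). Ifng itself was not analysed here.

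Neighbouring genes that share the class II stretch of chromosome 17 but not its function were counted for comparison. Of 11 measured, 1 rose and 2 fell in KO B6;129 quadriceps, 0 rose and 5 fell on the mixed background, and 7 rose with treatment. In these comparisons 35.8%, 39.4% and 40.6% of all 14113 genes were called. By direction, 3148 genes fell in KO mice on the mixed background and 3325 rose with treatment. The median neighbour difference was -0.02, -0.10 and 0.41, against -0.02, -0.04 and 0.05 over all genes. Rxrb, a nuclear receptor gene, had 54.4 ± 0.362 in treated KO, 35.4 ± 1.54 in KO and 54.7 ± 8.45 in WT quadriceps on the mixed background.

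Macrophage markers moved with the class II genes in quadriceps. Of 10 macrophage markers, 10 rose in KO B6;129 and 8 in KO mixed-background quadriceps, and 8 fell with treatment. Beside them, 16.7% and 17.1% of all genes were called higher and 17.1% called lower. Mpeg1, the phagocyte pore protein perforin-2, had 29.1 ± 8.56 in KO against 2.31 ± 0.125 in WT on B6;129 (3.36 ± 0.26, limma adjusted p = 8.71e-07). The summed macrophage signal was 303 to 382 in KO against 59.9 to 86.8 in WT B6;129 quadriceps, and 75.1 to 190 in treated KO, 252 to 516 in KO and 106 to 151 in WT quadriceps on the mixed background. The part of cell number in the class II differences was not tested. Itgax, the integrin CD11c of dendritic cells and activated macrophages, was the 1 of 3 tested dendritic markers called in KO B6;129 quadriceps (2.78 ± 0.25, limma adjusted p = 2.97e-06). In that comparison 35.8% of all genes were called.

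The summed signal of skeletal muscle markers moved the opposite way. The 6 markers summed to 1.28e+05 to 1.39e+05 in KO against 1.64e+05 to 1.8e+05 in WT B6;129 quadriceps, and to 2.08e+05 to 2.25e+05 in treated KO, 1.17e+05 to 1.38e+05 in KO and 1.69e+05 to 2.04e+05 in WT quadriceps on the mixed background. Of the 6, 2 fell in KO B6;129 mice (Actn3 and Myh4, genes of fast fibres) and 3 in KO mixed-background mice (these and Ckm, muscle creatine kinase), and 4 rose with treatment. Over all 14113 genes, 2687 and 3148 fell in KO mice and 3325 rose with treatment, with 35.8%, 39.4% and 40.6% called in either direction. The median difference of the 6 markers was -0.31, -0.43 and 0.55, and their part in the class II differences was not tested.

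B cells also carry class II, and their marker moved the other way. Ighm, the immunoglobulin mu chain, had 23.7 ± 9.87 in KO against 87.3 ± 50.2 in WT B6;129 quadriceps (-1.79 ± 0.46, limma adjusted p = 0.00779). Ighm on the mixed background was 261 ± 88.9 in treated KO, 42.9 ± 13.6 in KO and 321 ± 185 in WT quadriceps (KO over WT -2.77 ± 0.46, adjusted p = 0.000375, and treated over untreated KO 2.59 ± 0.46, adjusted p = 0.000515, limma). Ighm is the 1 B cell marker tested. The 1 T cell marker tested was not called in these 3 comparisons by limma, and the T cell marker sum ranged from 0.132 to 7.32 over the 15 quadriceps libraries.

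In cord the macrophage markers rose in KO mice while the class II chains were not called. Of 10 markers, 6 rose in KO B6;129 cord and 8 in KO mixed-background cord, beside 1.16% and 13% of all genes called. The marker sum was 258 to 263 in KO against 115 to 122 in WT B6;129 cord. The mixed-background sum was 160 to 234 in treated KO, 241 to 271 in KO and 111 to 135 in WT cord. The class II sum was 11.9 to 23.2 in KO against 15.4 to 23.1 in WT B6;129 cord, and 30.3, 30.3 and 30.4 in untreated KO cord on the mixed background.

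The class II sum over the macrophage sum was lower in each untreated KO cord than in any WT cord of its background, at 0.0832, 0.0898 and 0.0463 in KO against 0.19, 0.133 and 0.142 in WT B6;129 cord. The mixed-background ratio was 0.156, 0.137 and 0.235 in treated KO, 0.115, 0.112 and 0.126 in KO and 0.158, 0.462 and 0.183 in WT cord. In quadriceps it was 1.01, 1.18 and 1.46 in KO against 1.29, 0.824 and 0.944 in WT B6;129 mice, and 0.562 to 0.739 in treated KO, 0.777 to 1 in KO and 0.463 to 0.83 in WT mice on the mixed background. Each quadriceps library was above the highest cord library, 0.463 against 0.462 at the closest. These ratios were computed after the values were seen and carry no test. The 6 microglia markers summed to 132 to 141 in WT B6;129 cord and to 15.2 to 18.1 in WT B6;129 quadriceps. Which cells carried the macrophage markers in each tissue was not tested.

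**Figure D3:**
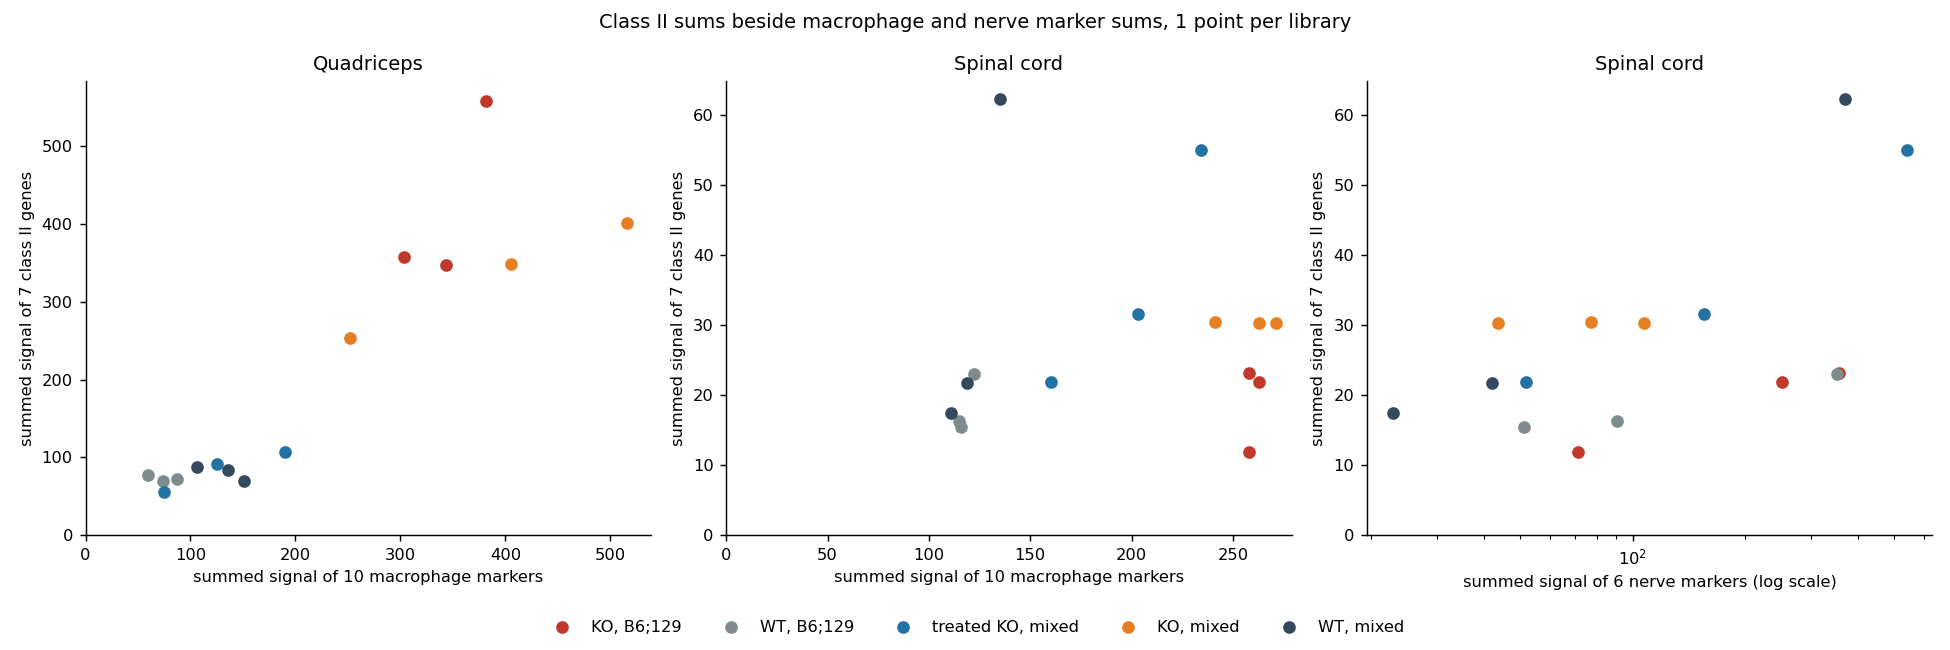
Summed signal of the 7 class II genes against that of 10 macrophage markers in quadriceps (left) and spinal cord (middle), and against 6 peripheral nerve markers in spinal cord (right, log axis), 1 point per library. In quadriceps both sums are high in KO libraries, in cord the untreated KO libraries lie to the right of all WT libraries at class II sums of 30.4 or less, and the 2 highest cord libraries have class II sums of 55 and 62.4.

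Cord libraries also differed in markers of peripheral nerve, which a dissected cord can carry as roots. These markers (6 genes, chosen after the cord values were seen) summed to 540 in treated KO replicate 24 and 369 in mixed-background WT replicate 3, the libraries with class II sums of 55 and 62.4. The lowest nerve sum, 22.8 in mixed-background WT replicate 1, stood beside a class II sum of 17.5. In B6;129 cord the order was similar, with nerve sums of 251, 356 and 71.4 and class II sums of 21.9, 23.2 and 11.9 in KO replicates 1, 2 and 3, and nerve sums of 351, 51.1 and 90.6 and class II sums of 23.1, 15.4 and 16.3 in WT replicates 4, 5 and 6. The untreated KO cords on the mixed background did not follow it, with nerve sums of 107, 43.7 and 77.5 beside class II sums of 30.3, 30.3 and 30.4. The part of nerve or muscle tissue in the cord class II levels was not tested.

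The E alpha gene split the mixed-background animals. H2-Ea-ps had 300, 0 and 159 reads in KO quadriceps replicates 6, 7 and 8, and 147, 20 and 0 reads in treated KO replicates 21, 22 and 24. It had 0 reads in all 3 WT quadriceps of that background and in all 6 B6;129 quadriceps, where 3 reads, the limit that a count of 0 allows for counting error, would be a signal of 0.0987 to 0.216. In cord the same animals had 27, 3 and 18 reads (KO 6, 7 and 8) and 53, 5 and 1 reads (treated 21, 22 and 24), and all WT and B6;129 cords had 0. So 4 animals, KO 6 and 8 and treated 21 and 22, had 5 or more reads in both tissues, 2 animals had 3 reads or fewer in cord and 0 in quadriceps, and 0 of 3 WT animals of that background had any. In quadriceps the gene was called higher in KO than in WT on the mixed background (3.19 ± 1.09, limma adjusted p = 0.0325), a call that rests on KO 6 and KO 8.

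The ratio of the A chains followed these animals in cord. H2-Aa over H2-Ab1, as linear signal, was 0.457 and 0.456 in treated 21 and 22 and 0.621 and 0.733 in KO 6 and 8. It was 0.929 in treated 24, 1.24 in KO 7 and 0.981, 0.955 and 1.00 in the WT animals, and 1.07 to 1.61 in B6;129 cords. The 4 animals with H2-Ea-ps reads thus had the 4 lowest ratios of all 15 cords. H2-Eb1 over H2-Ab1 had the same 4 animals lowest among the mixed-background cords, at 0.427, 0.475, 0.695 and 0.636 in treated 21, treated 22, KO 6 and KO 8, against 0.798 in treated 24, 0.812 in KO 7 and 0.983 to 1.49 in WT. In quadriceps no such split appeared in H2-Aa over H2-Ab1, which was 1.01, 1.20 and 1.13 in treated 21, 22 and 24, 1.65, 1.61 and 1.52 in KO 6, 7 and 8 and 0.99 to 1.21 in WT. H2-Eb1 over H2-Ab1 was 1.20, 1.04 and 1.03 in those KO. Cd74 over H2-Ab1 was 4.07, 4.14 and 2.57 in those treated animals, 2.69, 2.08 and 2.44 in those KO and 2.19 to 2.95 in WT. H2-DMa over H2-Ab1 was 0.387, 0.479 and 0.151, then 0.139, 0.124 and 0.152, and 0.128 to 0.341 in WT. The last 2 ratios were higher in animals with H2-Ea-ps reads than in their group mates without them. In treated 21 and 22 both ratios were above all WT animals of that background. In KO 6 and 8 both ratios lay within the range of those WT animals. The groups of the study were kept throughout, and the 4 animals enter as an omission from the fit, given next. Genotypes at H2 were not measured, and the part of reads lost on sequence that differs from the reference was not tested.

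**Figure D4:**
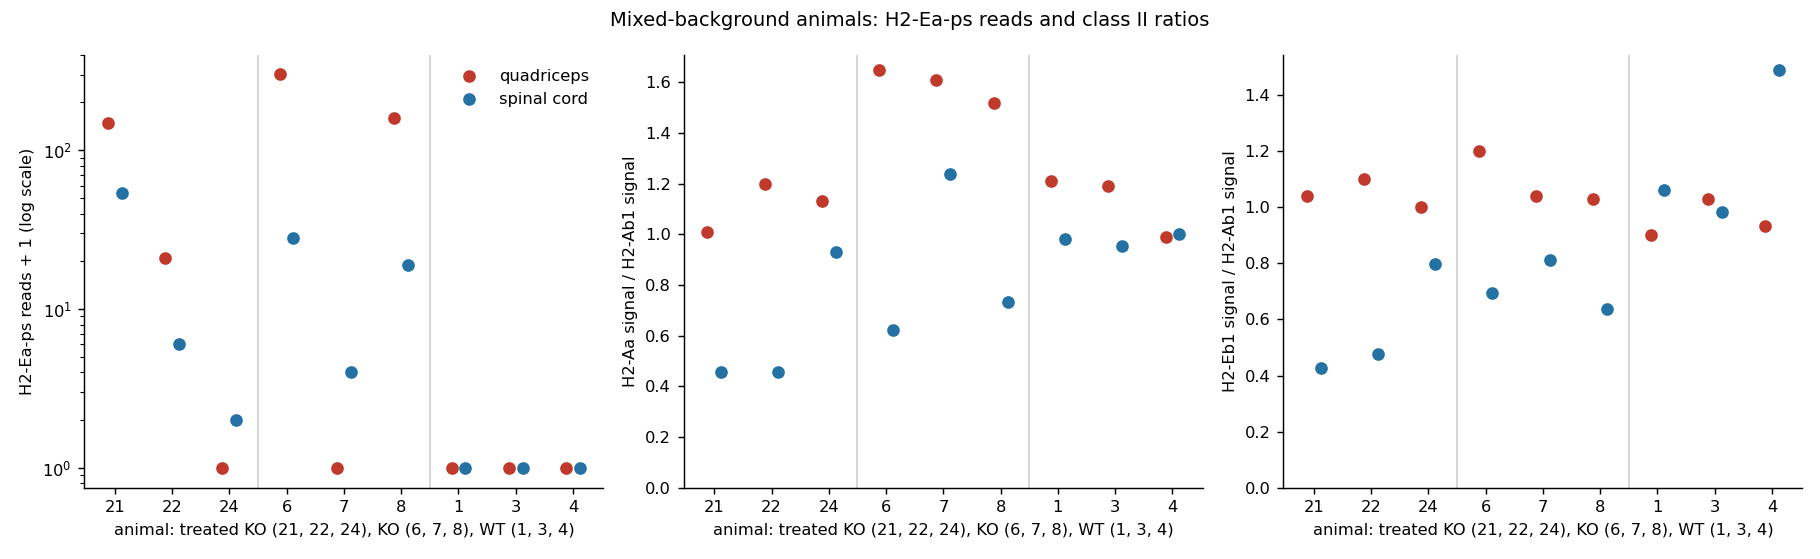
Mixed-background animals by number: reads of H2-Ea-ps plus 1 (left, log axis), and H2-Aa (middle) and H2-Eb1 (right) signal divided by H2-Ab1 signal, 1 point per animal and tissue. Treated 21 and 22 and KO 6 and 8 have H2-Ea-ps reads in both tissues and the lowest cord ratios, while the quadriceps ratios of H2-Aa to H2-Ab1 lie at 1.01 to 1.2 in treated KO, 1.52 to 1.65 in KO and 0.99 to 1.21 in WT animals.

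Without those 4 animals, an alternative chosen after the values were seen, 1 KO and 1 treated library remain and are taken to vary like the other groups. The members called higher in KO than in WT were again 7 of 7, and 6 of 7 were called lower in treated than in untreated KO, where Ciita was -1.09 and not called (limma, adjusted p = 0.094) and H2-DMa was -1.46. In cord H2-DMa was then 0.23 higher in KO than in WT (adjusted p = 0.426) and 0.42 higher in treated KO than in WT (adjusted p = 0.112), neither called by limma.

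The ratios between members were set side by side across backgrounds in 20 comparisons, each of 3 against 3 libraries, where the smallest p of a two-sided exact permutation test is 0.1. The log2 ratio of H2-Aa to H2-Ab1 was 0.67 ± 0.06 in KO quadriceps on the mixed background and 0.33 ± 0.06 in KO B6;129 quadriceps (SD, n = 3 each; difference 0.33, exact permutation p = 0.1). It went the other way in WT quadriceps, at 0.17 ± 0.16 on the mixed background and 0.39 ± 0.09 on B6;129 (difference -0.23, exact permutation p = 0.1). No comparison could pass a threshold of 0.05, before or after adjustment.

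The genes whose pattern was most like the members were taken by Pearson correlation, over the 15 libraries of a tissue, with the mean of the members' standardised log2 values. The libraries share groups, so these values describe likeness and are not tests. In quadriceps they were Cxcl16 (r = 0.989), Mpeg1 (0.986), Ctss (0.982), Tmsb10 (0.980), Gatm (0.980), Aif1l (0.979), Itgax (0.977), Maged1 (0.976), Lgmn (0.976) and Cotl1 (0.975). On deviations from group means, r was 0.881 for Cxcl16, a chemokine, and 0.493 for Aif1l, the lowest of the 10. In cord they were Dcn (0.925), Ehbp1l1 (0.911), Cavin1 (0.910), Srgn (0.888), Tgfbi (0.878), Rapsn (0.874), Hspb2 (0.874), Ecscr (0.865), Lbp (0.865) and S100a11 (0.864). Dcn encodes decorin, a proteoglycan of connective tissue, and on deviations its r was 0.947. The 2 sets have 0 genes in common. Pairs of members had r of 0.83 to 1 in quadriceps (21 pairs, median 0.95; 0.63 on deviations) and 0.01 to 0.94 in cord (15 pairs, median 0.71; 0.76 on deviations).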

How the data were processed

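PolyA RNA from quadriceps and spinal cord, 30 samples from 15 animals, was sequenced in single reads of 61 bases, per the labels' protocols. Per the submitters' processing notes, the authors used cutadapt, RSEM, edgeR and limma on GRCm38; versions and parameters are not given in the sources used here. The deposited table holds a normalised signal for 17420 genes. Whole reads could be recovered from 100% of the deposited signal values within 0.001 (reads plus 0.5, over a library size that the authors scaled), so low levels are known to rest on few reads. Of the gene identifiers, 17388 were found in GENCODE vM21. A set of 265 rows without a gene name stayed in the fits. Columns were matched to samples through the labels. Descriptions of treated cord samples repeat a column, and there the number in each title decided the match, all within a single group.

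Values were analysed as log2(signal + 0.5) in R 4.3.3 with limma 3.58.1 (eBayes with trend). A gene was tested where 3 or more libraries of a tissue reached a signal of 1, which left 14113 in quadriceps, 15838 in cord and 13187 in both. A model of 5 groups was fitted to the 15 libraries of a tissue, tissue differences were fitted over 30 libraries, and p-values were adjusted over all genes (Benjamini-Hochberg). A gene is called at an adjusted p under 0.05. The fits were tested on simulated data. Alternatives were edgeR 4.0.16 and DESeq2 1.42.0 on the recovered counts, other pseudocounts (2), filters (4 or none), quantile normalization, fits of only the compared groups, and leaving out single libraries. The 2 tissues of an animal are paired by the labels. Deviations from group means in each quadriceps library were correlated with those in the 3 cord libraries of the same group. The cord of the same animal had the highest r of those 3 in 15 of 15 animals (r 0.109 to 0.354). Cords of other groups were not compared, and deviations within a group are not independent.

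The members and gene lists were chosen with earlier results of these data known. The text names all members, H2-Ea-ps in each library, up to 3 called genes with the smallest adjusted p per list and comparison, and per tissue the 10 genes most like the members. H2-DMb2 is also named as the near-copy of H2-DMb1. Of the listed genes, H2-Ea, H2-Eb2, H2-Oa, Ifng, Cd80 and several lymphocyte and dendritic cell markers were not analysed here.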

Additional observations from a re-analysis of the deposited data

Results flagged for a closer look

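Differences between the 2 tissues of the same mice were tested directly, as quadriceps minus cord, and all 18 passed the threshold (limma, 30 libraries). The KO difference on B6;129 was larger in quadriceps by 2.75 for H2-Aa, 2.54 for H2-Ab1, 2.52 for H2-Eb1, 1.66 for H2-DMa, 1.92 for H2-DMb1 and 2.20 for Cd74, on the log2 scale. On the mixed background it was larger by 2.50 for H2-Aa, 1.79 for H2-Ab1, 2.58 for H2-Eb1, 0.90 for H2-DMa, 1.92 for H2-DMb1 and 1.66 for Cd74. The treatment difference was more negative in quadriceps, by -2.75 for H2-Aa, -2.67 for H2-Ab1, -2.40 for H2-Eb1, -1.04 for H2-DMa, -1.71 for H2-DMb1 and -1.59 for Cd74. Adjusted p-values by limma lay between 0.000125 for H2-DMa and 0.0115 for H2-DMb1 in KO B6;129, between 0.00262 for H2-Eb1 and 0.0253 for Cd74 in KO mixed-background and between 0.000916 for H2-Ab1 and 0.0298 for Cd74 in treated mice.

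Some of these calls depend on 1 library. On the mixed background H2-Ab1 was 1.09 (limma, adjusted p = 0.0693) and Cd74 1.05 (adjusted p = 0.0941) without cord WT replicate 3, Cd74 was 1.48 (adjusted p = 0.0661) without quadriceps KO replicate 6, and H2-DMa was 0.75 (adjusted p = 0.0565) without quadriceps WT replicate 1. For treatment, H2-DMb1 lost its call without quadriceps treated 22 (-1.49), quadriceps KO 6 (-1.50), cord treated 24 (-1.08) or cord KO 8 (-1.51), with limma adjusted p of 0.0536 to 0.0702. Cd74 lost it without quadriceps treated 22 (-1.35), quadriceps KO 6 (-1.41), cord treated 21 (-1.53), cord treated 24 (-1.22) or cord KO 7 (-1.55), with limma adjusted p of 0.0525 to 0.102.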

How the results depend on the processing

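Called members kept their count within 1.5 times in all quadriceps comparisons under each alternative, and no called member changed direction. With the animal as a replicate block, which pairs the tissues, 6 of 6 members were called in each tissue difference, as without it, and no call changed (consensus correlation 0.0692). No block could be fitted within 1 tissue, where each animal has a single library.

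Cord counts moved more. KO over WT on the mixed background had 0 members called with quantile normalization, in a fit of only those groups and without the 4 animals with H2-Ea-ps reads, and 0 to 1 over fits that each omit a library. Treated KO over WT had 0 without those 4 animals, 2 without treated 24 and WT 3, and 1 to 2 over fits that omit a library. WT mixed over WT B6;129 had 2 without a filter or with quantile normalization, 3 with edgeR or DESeq2, and 0 to 3 over fits that omit a library. The causes were not tested. Fits that omit a library gave 4 to 6 of 6 tissue differences on the mixed background and for treatment.

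For 49 member comparisons that were called in 0 settings, 737 alternative values held 107 changes of sign around 0, in 35 of the comparisons. After these were seen, such comparisons were reported by this count, by the 95% intervals in the report and by the cord values without treated 24 and WT 3, apart from H2-Ab1 in quadriceps and H2-DMa in cord for the difference between backgrounds. Ranking by Spearman correlation shared 1 of 10 most alike genes in quadriceps and 5 of 10 in cord. With 3 animals a group, the cord KO intervals of H2-Aa, H2-Ab1 and Cd74 reach beyond 1 on the log2 scale on both backgrounds, and Ciita in cord rests on 30 reads or fewer.

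Counts over all genes, behind the shares given beside the members, moved by over 1.5 times in these settings. Without the 4 animals with H2-Ea-ps reads, quadriceps KO over WT on the mixed background had 2729 called genes (main 5562), treated over untreated KO 2305 (5736), treated KO over WT 57 (421), cord KO over WT 707 (2061) and cord treated over untreated KO 51 (0). DESeq2 called 1028 in quadriceps treated KO over WT (421), 203 for the difference between backgrounds (40, edgeR 10), 786 between WT groups (363), 386 in cord KO over WT on B6;129 (183), 155 in cord treated over untreated KO (0) and 278 for the difference between backgrounds in cord (83). Fits of only the compared groups gave 17 in quadriceps treated KO over WT (421), 158 between quadriceps WT groups (363), 326 in cord KO over WT on B6;129 (183), 722 on the mixed background (2061), 647 in cord treated KO over WT (2654) and 144 for the cord difference between backgrounds (83). Cord treated over untreated KO had 0 genes called, against 3 with a pseudocount of 2, 4 with a filter of 4, 2 with edgeR and 33 without treated 24 and WT 3, where the cord difference between backgrounds had 135 (83). Fits that each omit a library gave 124 to 448 in quadriceps treated KO over WT (421), 11 to 116 for the difference between backgrounds (40), 187 to 596 between WT groups (363), 101 to 145 in cord KO over WT on B6;129 (183), 918 to 1892 on the mixed background (2061), 0 to 35 in cord treated over untreated KO (0), 1462 to 2598 in cord treated KO over WT (2654) and 43 to 95 for the cord difference between backgrounds (83). The all-gene counts of the other comparisons stayed within 1.5 times in these fits.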

Other observations

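Red blood cell markers (5 genes) were 0.05 and -0.07 apart at the median in KO over WT quadriceps on B6;129 and on the mixed background. Of these markers 0 were called by limma, beside 35.8% and 39.4% of all genes. In treated over untreated KO quadriceps their median was -1.73, with 0 of 5 called, beside 40.6% of all genes. Of 4 microglia markers tested in quadriceps, 3 rose in KO B6;129 and 2 in KO mixed-background mice, beside 16.7% and 17.1% of all genes called higher. In cord 2 of 6 rose in KO B6;129 and 4 of 6 in KO mixed-background mice, while 0 of 3 border macrophage markers were called on either background. Over all genes in cord 1.16% and 13% were called.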
